A study of Mus musculus with 12 samples.

Results

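The glycolysis and hypoxia response genes described here are 36 protein-coding genes of 54446 genes counted in every library. They were taken from a list of names and matched by GENCODE symbol to the Ensembl identifiers of the count tables, and every member was found. Sorted by role, 16 are glycolytic enzymes, 6 are transporters or regulators of glucose flux, 6 are regulators of the hypoxia-inducible factor (HIF) and 8 are HIF targets. The last 2 roles together are called the 14 HIF pathway genes.

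CD11b+ myeloid cells were sorted from subcutaneous tumors of MC38, a mouse colon carcinoma line, in wild-type (WT) mice aged 8 to 10 weeks, which by the study's methods carried the floxed *Ythdf2* alleles (Ythdf2 f/f) without Cre. The tumors were unirradiated (Ctrl) or had received a single local dose of 20 Gy of ionizing radiation (IR) 3 days before sorting. For either condition 3 pools of mice were made, named technical replicates in the study's methods, and each pool gave an Input library (no antibody) and a library of the RNA that came down with an anti-YTHDF2 antibody (IP), 12 libraries in all. The methods name an Aviva antibody and whole cell lysate, the sample records an Abcam antibody and isolated mRNA, and no IP with a control antibody was analysed here, so log2(IP/Input) was not set against nonspecific recovery.

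Glycolysis splits glucose into pyruvate in the cytosol, and lactate dehydrogenase turns pyruvate into lactate. In low oxygen HIF-1α, a transcription factor otherwise hydroxylated by EGLN enzymes and removed through VHL, pairs with ARNT and raises the transcription of most glycolytic enzymes, of glucose transporters and of genes for angiogenesis and mitophagy. Tumor-infiltrating neutrophils and monocytes are known for a glycolytic metabolism, and YTHDF2 is a reader of N6-methyladenosine (m6A) on mRNA that brings its targets to decay.

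Across the libraries, 27852948 to 42382532 reads were counted on genes, and a count of 3, taken as the detection floor, was worth 0.0737 to 0.112 CPM (counts per 1000000 counted reads after TMM scaling). The myeloid label held in the Inputs, where 6 myeloid markers summed to 4486 to 4573 CPM in Ctrl and 5601 to 5689 CPM in IR. The 7 markers of T, NK or B cells summed to 8.20 to 11.7 CPM over all Inputs, and of 5 epithelial markers, 3 stayed under 1 CPM in every Input and all summed to 119.3 to 127.3 CPM in the Ctrl Inputs and 90.8 to 96.8 CPM in the IR Inputs. Reads that the counting assigned to no gene feature were 24.6% to 27.0% of the uniquely aligned reads in the Inputs. They were 41.8% to 42.7% in the Ctrl IPs and 49.4% to 54.1% in the IR IPs. Such reads may lie in introns, since the feature type counted is not given. Replicates were least alike in the IR IPs, where the variance-to-mean ratio of counts between pairs of libraries was 17.2 to 21.5, against 8.83 to 9.96 in the Ctrl IPs and 3.59 to 6.27 in the Inputs.

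Only 3 members, the hexokinase *Hk2*, the glucose transporter *Slc2a1* and *Pfkfb4*, were called higher in the IP than in the Input in both conditions (edgeR, adjusted p under 0.05). Their 3′ UTRs are shown because this was the direction in which few members moved. The letters GGACT are a frequent form of the context in which m6A is found, and here they were searched on the transcript strand of each gene's representative GENCODE transcript (mm10). The *Hk2* 3′ UTR of 2285 bases holds 4 of them, that of *Slc2a1* (1537 bases) holds 2 and that of *Pfkfb4* (1840 bases) holds 4. Each window gives 10 bases on both sides, with GGACT in capitals.
*Hk2* site 1, chr6:82727279-82727303, minus strand: ggagcagacgGGACTtccctgcttc
*Hk2* site 2, chr6:82727189-82727213, minus strand: cgagagactgGGACTtttgtcccga
*Hk2* site 3, chr6:82725948-82725972, minus strand: ctgcttccttGGACTgagctgcatc
*Hk2* site 4, chr6:82725330-82725354, minus strand: atctaggaaaGGACTtttttttaaa
*Slc2a1* site 1, chr4:119136592-119136616, plus strand: aggatattcaGGACTttgatggctc
*Slc2a1* site 2, chr4:119136938-119136962, plus strand: ataggggtccGGACTccattttagg
*Pfkfb4* site 1, chr9:109031195-109031219, plus strand: tggtcctgtcGGACTgtcttcccat
*Pfkfb4* site 2, chr9:109031229-109031253, plus strand: tctacctgtaGGACTgaggaaggaa
*Pfkfb4* site 3, chr9:109031669-109031693, plus strand: gcctagggcgGGACTcctgggctca
*Pfkfb4* site 4, chr9:109032093-109032117, plus strand: gttcacaggcGGACTgcctacattt
At least 1 GGACT was found in 31 of 36 member transcripts (86.1%) and in 91.8% of 10567 expressed protein-coding transcripts, and the share with a GGACT in the 3′ UTR was 61.1% for the members and 58.7% for the expressed genes. The members with none were *Aldoa*, *Gapdh*, *Arnt*, *Bnip3* and *Bnip3l*. The letters are not m6A sites, since m6A was not measured in these libraries.

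Abundance in the Input, per kilobase of transcript so that genes can be set beside each other, ran from 0.128 CPM per kb for *Epas1* to 359.4 for *Aldoa* in Ctrl. 6 enzymes stood out. *Aldoa* (aldolase), *Pkm* (pyruvate kinase, 358.1), *Eno1* (enolase, 317.1), *Gpi1* (glucose-6-phosphate isomerase, 277.6), *Gapdh* (glyceraldehyde-3-phosphate dehydrogenase, 225.4) and *Ldha* (lactate dehydrogenase, 213.6) were above 200 CPM per kb. Of the hexokinases, which trap glucose as glucose-6-phosphate, *Hk3* had 41.7, *Hk2* 27.3 and *Hk1* 21.3 CPM per kb. Among the phosphofructokinases, *Pfkp* at 43.1 CPM per kb was ahead of *Pfkl* at 14.4 and *Pfkm* at 1.76. The HIF pathway genes were led by *Bnip3l*, a mitophagy receptor, at 50.9 CPM per kb, and *Hif1a* had 12.3. *Epas1*, which encodes HIF-2α, and *Adm*, the hormone adrenomedullin, were at 2.78 CPM or less in every library, with at most 90 and 53 counts, and passed the filter of 10 counts in 3 libraries with little precision. Neither was called in any comparison.

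**Figure D1:**
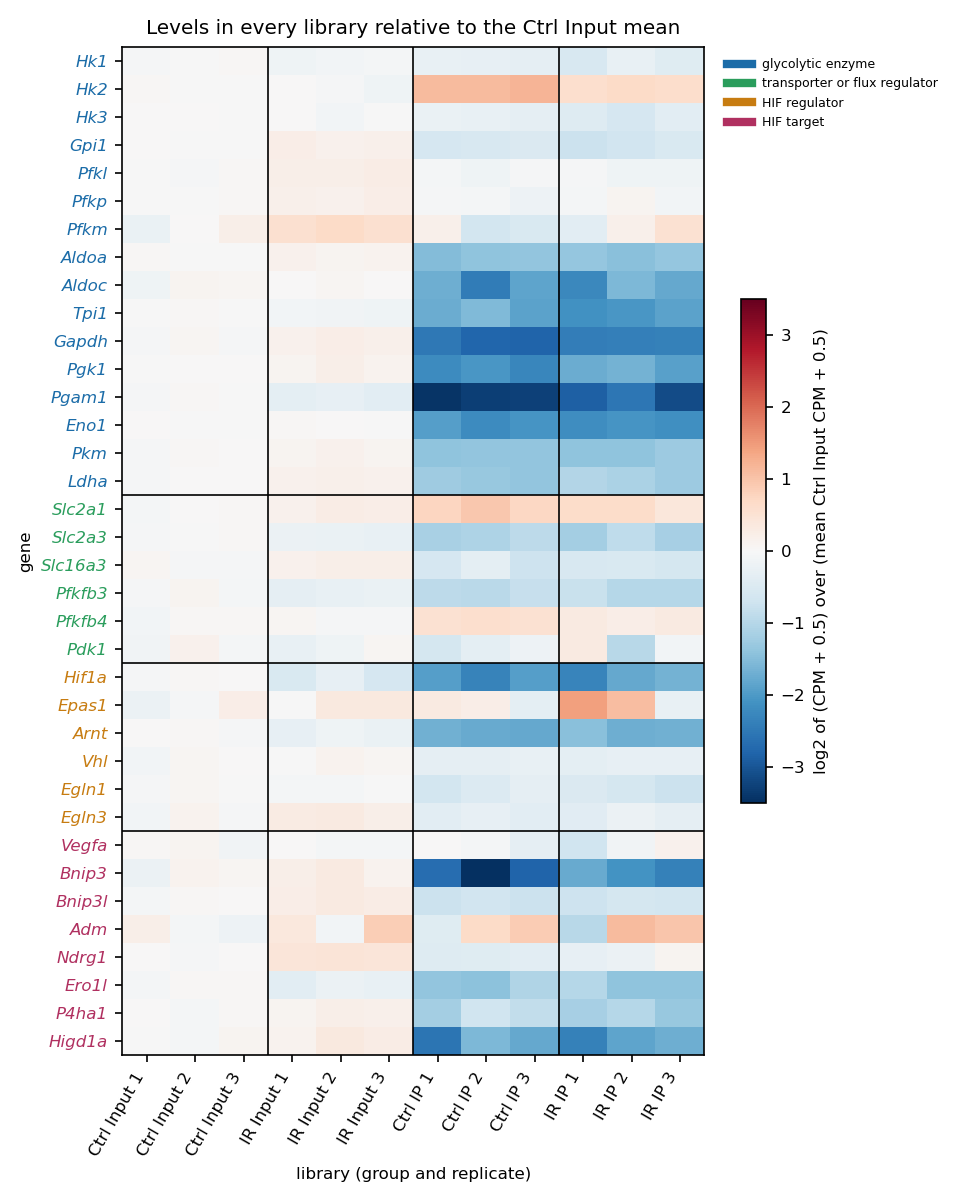
Level of the 36 genes (rows, names coloured by role) in each of the 12 libraries (columns), as log2 of CPM plus 0.5 over the mean CPM of the Ctrl Inputs plus 0.5. The IP columns are blue (lower than the Ctrl Input) for most genes and red in all 6 IPs for *Hk2*, *Slc2a1* and *Pfkfb4*.

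The first question was which of these transcripts were higher or lower in the YTHDF2 IP than in the Input of unirradiated cells. In Ctrl, 3 of 36 members were higher in the IP than in the Input and 26 were lower (quasi-likelihood F-test of edgeR, with p-values adjusted by the Benjamini-Hochberg method over all 17416 genes tested, threshold 0.05), where 34.1% of all genes tested were called higher and 34.6% lower. The median log2(IP/Input) was -0.57 over the members, 0.018 over all genes tested and -0.14 over the 11610 genes averaging 100 counts or more. In IR the same 3 members were higher and 28 were lower, against a background of 32.1% higher and 30.4% lower of 18650 genes, with a median of -0.74 over the members, 0.10 over all genes tested and -0.23 over the 11819 genes averaging 100 counts or more. Among the genes averaging 100 counts or more, 45.3% were lower in Ctrl and 44.3% in IR.

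Hexokinase 2 had the highest log2(IP/Input) of the glycolytic enzymes. *Hk2* (ENSMUSG00000000628.10, chr6:82725025-82774454, minus strand) was at 153.8, 148.9 and 148.7 CPM in the Ctrl Inputs and at 327.4, 327.3 and 340.6 CPM in the Ctrl IPs. In IR the Inputs had 151.8, 145.0 and 136.4 CPM and the IPs 228.4, 240.1 and 231.7 CPM. All IPs were above all Inputs, and the IR IPs were below the Ctrl IPs without overlap. The fitted log2(IP/Input) was 1.22 ± 0.042 (SE, adjusted p = 3.3e-14, edgeR) in Ctrl, a 2.32-fold difference, and 0.75 ± 0.055 (adjusted p = 5.25e-07, edgeR) in IR. Per kilobase, *Hk2* stood behind *Hk3* in the Ctrl Inputs but ahead of it in the Ctrl IPs, with 60.2 CPM per kb against 34.6 for *Hk3* and 17.4 for *Hk1*.

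The other enzymes of the early steps lay closer to 0. The log2(IP/Input) in Ctrl was -0.21 for *Hk1*, -0.19 for *Hk3* and -0.48 for *Gpi1*, all called lower, and -0.013 for *Pfkl* and -0.020 for *Pfkp*, the liver and platelet phosphofructokinases, which were not called (95% intervals -0.14 to 0.12 and -0.11 to 0.072). In IR *Pfkl* (-0.29) and *Pfkp* (-0.14) were called lower, a call that *Pfkp* lost without any 1 of the 6 libraries and that *Pfkl* lost without IR IP replicate 2 (adjusted p = 0.0515, edgeR). *Pfkm* was not called in either condition (-0.25 and -0.41). *Hk1* lost its call in IR without any 1 of 4 libraries.

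From aldolase on, all 9 enzymes were lower in the IP in both conditions, with a log2(IP/Input) of -1.23 or below, a grouping by step that was made after the values were seen. *Gapdh* (ENSMUSG00000057666.18, chr6:125161715-125166467, minus strand) had 281.5, 301.0 and 278.1 CPM in the Ctrl Inputs and 50.7, 41.3 and 40.4 CPM in the Ctrl IPs. In IR it had 319.8, 338.4 and 324.8 CPM in the Inputs and 52.8, 54.4 and 55.8 CPM in the IPs, so that no IP came near an Input. Its log2(IP/Input) was -2.62 ± 0.071 (SE) in Ctrl and -2.54 ± 0.053 in IR.

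*Pgam1* (phosphoglycerate mutase, ENSMUSG00000011752.6, chr19:41911923-41918660, plus strand) had the lowest log2(IP/Input) of the enzymes. It was at 97.3, 104.4 and 100.1 CPM in the Ctrl Inputs and at 8.92, 9.73 and 10.01 CPM in the Ctrl IPs, a log2(IP/Input) of -3.32 ± 0.077 (SE). In IR it was at 79.7, 82.9 and 77.8 CPM in the Inputs and at 13.5, 16.9 and 10.96 CPM in the IPs, where it was -2.48 ± 0.14. The Inputs fell and the IPs lay higher in IR, with no overlap in either.

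*Pgk1* (phosphoglycerate kinase, ENSMUSG00000062070.12, chrX:106187100-106203699, plus strand) had 161.8, 167.0 and 164.9 CPM in the Ctrl Inputs and 35.3, 39.8 and 33.6 CPM in the Ctrl IPs. The IR Inputs had 177.2, 188.7 and 178.1 CPM and the IR IPs 49.3, 51.9 and 43.8 CPM. *Ldha* (ENSMUSG00000063229.15, chr7:46841475-46855627, plus strand) had 377.1, 391.4 and 394.4 CPM in the Ctrl Inputs, 163.6, 154.0 and 147.4 in the Ctrl IPs, while IR gave 427.1, 436.3 and 433.8 CPM in its Inputs and 190.4, 180.6 and 160.4 CPM in its IPs. For both genes every IP was below every Input, with log2(IP/Input) in Ctrl of -2.11 ± 0.064 and -1.25 ± 0.045 (SE). The other enzymes of these late steps ranged from -2.05 for *Aldoc* to -1.31 for *Pkm* in Ctrl.

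Several of these genes have near-identical copies elsewhere in the genome, with at least 95% identity over 150 bases or more, and reads that align to several places are left out of such counts. Copies were found for 8 of 16 glycolytic enzymes (*Gpi1*, *Tpi1*, *Gapdh*, *Pgk1*, *Pgam1*, *Eno1*, *Pkm* and *Ldha*) and for 3 HIF targets (*Bnip3*, *Bnip3l* and *Higd1a*), so their values are uncertain. The 79 *Gapdh* copies took 28.8% to 45.4% of the counts of gene and copies together, and the 4 *Bnip3* copies 28.9% to 63.4% in the IPs against 1.21% to 2.88% in the Inputs. For the other 9 genes the copies took at most 3.83%.

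**Figure D2:**
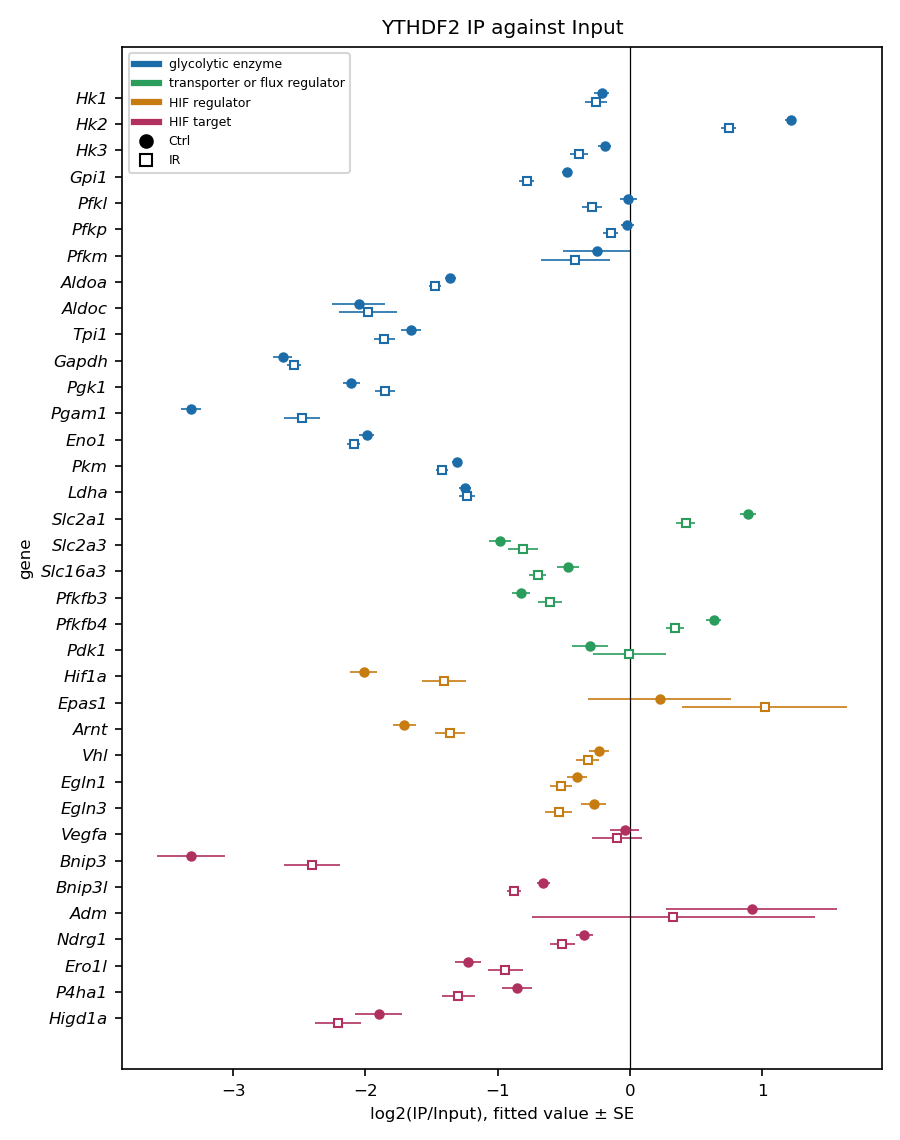
Fitted log2(IP/Input) of each gene (points) with its standard error (bars) in Ctrl (filled circles) and IR (open squares), coloured by role. *Hk2*, *Slc2a1* and *Pfkfb4* lie right of 0 in both conditions, and *Pgam1* and *Bnip3* lie furthest left in Ctrl at -3.32.

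The transporters and flux regulators were split. *Slc2a1*, the glucose transporter GLUT1 (ENSMUSG00000028645.11, chr4:119108711-119137983, plus strand), was at 108.5, 114.6 and 115.3 CPM in the Ctrl Inputs and at 191.6, 219.0 and 185.9 CPM in the Ctrl IPs. In IR it was at 124.9, 134.6 and 131.4 CPM in the Inputs and at 178.0, 177.4 and 149.1 CPM in the IPs, above the Inputs but by less. Its log2(IP/Input) was 0.89 ± 0.059 (SE, adjusted p = 3.34e-10, edgeR) in Ctrl and 0.42 ± 0.073 (adjusted p = 0.000483, edgeR) in IR.

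*Slc2a3*, the glucose transporter GLUT3 (ENSMUSG00000003153.10, chr6:122727809-122801640, minus strand), lay on the other side. It had 45.7, 46.1 and 48.4 CPM in the Ctrl Inputs, 21.0, 21.8 and 24.6 in the Ctrl IPs, while IR gave 40.8, 39.8 and 39.3 CPM in its Inputs and 20.4, 25.2 and 20.5 CPM in its IPs. The IPs did not overlap with the Inputs, and log2(IP/Input) was -0.98 ± 0.084 (SE) in Ctrl and -0.81 ± 0.11 in IR.

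PFKFB3 and PFKFB4 make and break fructose-2,6-bisphosphate, the activator of phosphofructokinase. *Pfkfb3* (ENSMUSG00000026773.19, chr2:11471433-11554077, minus strand) had 70.3, 77.6 and 69.0 CPM in the Ctrl Inputs, 38.0, 37.5 and 40.9 in the Ctrl IPs, while IR gave 57.8, 59.9 and 61.3 CPM in its Inputs and 41.7, 35.7 and 35.9 CPM in its IPs. *Pfkfb4* (ENSMUSG00000025648.18, chr9:108991778-109032228, plus strand) had 61.2, 66.8 and 67.4 CPM in the Ctrl Inputs, 94.8, 98.8 and 93.7 in the Ctrl IPs, while IR gave 68.6, 63.5 and 62.8 CPM in its Inputs and 80.5, 76.3 and 81.0 CPM in its IPs. The 2 genes lay on opposite sides of the Input, at -0.82 ± 0.070 and 0.63 ± 0.058 (SE) in Ctrl and at -0.61 ± 0.090 and 0.34 ± 0.070 in IR, and their order per kilobase turned round, from 32.6 and 18.7 CPM per kb in the Ctrl Inputs to 17.5 and 27.4 in the Ctrl IPs. *Slc16a3*, the lactate exporter MCT4, was lower in the IP in both conditions (-0.47 and -0.70). *Pdk1*, the kinase that turns off pyruvate dehydrogenase, was not called (-0.30 and -0.0049).

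Of the 14 HIF pathway genes 11 were lower in the IP in both conditions and 0 were higher, by edgeR or DESeq2 and also at an unadjusted p under 0.05. By edgeR at an adjusted p under 0.05, 34.6% of all genes tested were lower in Ctrl and 30.4% in IR. The shares higher were 34.1% and 32.1%. The 3 members higher in the IP, *Hk2*, *Slc2a1* and *Pfkfb4*, had been sorted under the other roles. *Hif1a* (ENSMUSG00000021109.13, chr12:73901375-73947530, plus strand) was at 56.3, 59.3 and 58.0 CPM in the Ctrl Inputs and at 14.8, 11.1 and 15.0 CPM in the Ctrl IPs. In IR it was at 40.0, 47.1 and 38.2 CPM in the Inputs and at 11.2, 16.2 and 18.1 CPM in the IPs. The Inputs were lower in IR without overlap while the IPs of both conditions overlapped, and log2(IP/Input) was -2.01 ± 0.10 (SE) in Ctrl and -1.41 ± 0.17 in IR. Annotated genes on the opposite strand cover 5.60% of the *Hif1a* exon bases and on the same strand 2.51%.

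*Arnt*, the partner of HIF-1α, followed at -1.71 ± 0.087 and -1.36 ± 0.12 (SE). The members of the oxygen-sensing arm, *Vhl*, *Egln1* and *Egln3*, were much nearer to the Input. This does not hold for all its parts outside the members, such as *Elob*, a partner of VHL (-1.55 in Ctrl and -2.00 in IR). *Vhl*, the recognition subunit of the ubiquitin ligase, was at -0.23 and -0.32, and *Egln1*, the main HIF prolyl hydroxylase, at -0.40 and -0.52. *Egln3* (ENSMUSG00000035105.5, chr12:54178981-54203860, minus strand), a hydroxylase that is itself a HIF target, was at 27.8, 32.2 and 28.7 CPM in the Ctrl Inputs, 22.6, 24.3 and 22.7 in the Ctrl IPs, while IR gave 36.5, 36.8 and 34.1 CPM in its Inputs and 22.3, 25.5 and 23.5 CPM in its IPs. Only its Inputs differed between the conditions without overlap. In Ctrl the calls of *Vhl* and *Egln3* were each lost without any 1 of 3 libraries, up to an adjusted p of 0.0555 and 0.074 (edgeR), for both genes with Ctrl Input replicate 2 and Ctrl IP replicate 1 among them.

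Of the HIF targets, *Bnip3*, a mitophagy receptor (ENSMUSG00000078566.8, chr7:138890836-138909519, minus strand), had 11.7, 14.9 and 14.4 CPM in the Ctrl Inputs and 1.73, 0.655 and 1.53 CPM in the Ctrl IPs. The IR Inputs had 15.9, 17.0 and 15.0 CPM and the IR IPs 3.64, 2.81 and 2.24 CPM, all above the Ctrl IPs, with at least 21 counts in each library. Its log2(IP/Input) was -3.32 ± 0.26 (SE) in Ctrl and -2.40 ± 0.21 in IR, with the share of the copies given above, and 22.3% of its exon bases lie opposite another annotated gene, as do 22.5% of those of *Higd1a*. *Higd1a*, a mitochondrial protein of the hypoxia response, was at -1.90 and -2.21, and *P4ha1*, a collagen prolyl hydroxylase, at -0.85 and -1.30.

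*Ero1l*, an oxidase of the endoplasmic reticulum (ENSMUSG00000021831.9, chr14:45283087-45318771, minus strand), had 45.1, 48.4 and 48.8 CPM in the Ctrl Inputs, 17.8, 17.3 and 22.7 in the Ctrl IPs, while IR gave 36.3, 40.7 and 39.2 CPM in its Inputs and 23.3, 17.4 and 17.5 CPM in its IPs. It was lower in the IP (-1.23 ± 0.10 and -0.94 ± 0.13) although its 3′ UTR of 2941 bases holds 4 GGACT, as many as that of *Hk2*. *Ndrg1*, a stress-response gene (ENSMUSG00000005125.13, chr15:66929318-66969640, minus strand), had 65.3, 63.1 and 64.9 CPM in the Ctrl Inputs, 47.0, 47.6 and 49.8 in the Ctrl IPs, while IR gave 85.9, 88.9 and 86.9 CPM in its Inputs and 52.7, 55.5 and 68.7 CPM in its IPs. It was lower in the IP than in the Input by 0.34 in Ctrl and 0.51 in IR on the log2 scale (fits of -0.34 ± 0.063 and -0.51 ± 0.096). *Bnip3l* was also lower (-0.66 and -0.88).

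*Vegfa*, the angiogenic growth factor (ENSMUSG00000023951.17, chr17:46016993-46032369, minus strand), differed from these. It had 24.7, 25.7 and 22.2 CPM in the Ctrl Inputs, 24.3, 23.2 and 19.5 in the Ctrl IPs, while IR gave 24.3, 23.0 and 23.2 CPM in its Inputs and 14.6, 22.1 and 26.8 CPM in its IPs. The groups overlapped, and neither condition was called, with a log2(IP/Input) of -0.041 (95% interval -0.25 to 0.17) in Ctrl and -0.099 (-0.47 to 0.27) in IR.

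Set side by side, the glycolytic enzymes had the lower median. It was -1.28 in Ctrl and -1.33 in IR, against -0.53 and -0.71 for the HIF pathway genes. The difference of medians was -0.75 in Ctrl and -0.62 in IR from the fits. Computed within each pool, with 2 counts added before the log, it was -0.33, -0.77 and -0.55 in Ctrl and -0.50, -0.60 and -0.50 in IR, so that the fitted value in IR lay below that of every pool. Without the members with near-identical copies, among them short enzymes of the late steps, the difference was 0.14 in Ctrl and 0.18 in IR. This alternative was chosen after seeing the data, and why the sign turned was not tested.

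Members with longer transcripts had the higher log2(IP/Input). Over the 34 members with a mean of at least 100 counts, Pearson's r with log2 transcript length was 0.617 in Ctrl and 0.676 in IR (Spearman's rho 0.553 and 0.614), a description across genes of the same libraries. Over 10567 expressed protein-coding genes r was 0.293 and 0.456. The median transcript was 2609 bases for the glycolytic enzymes, 2840.5 for the HIF pathway genes and 2974 for the expressed genes. For GGACT per kilobase r was 0.304 and 0.269 over the members and 0.0736 and 0.0415 over the expressed genes.

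**Figure D3:**
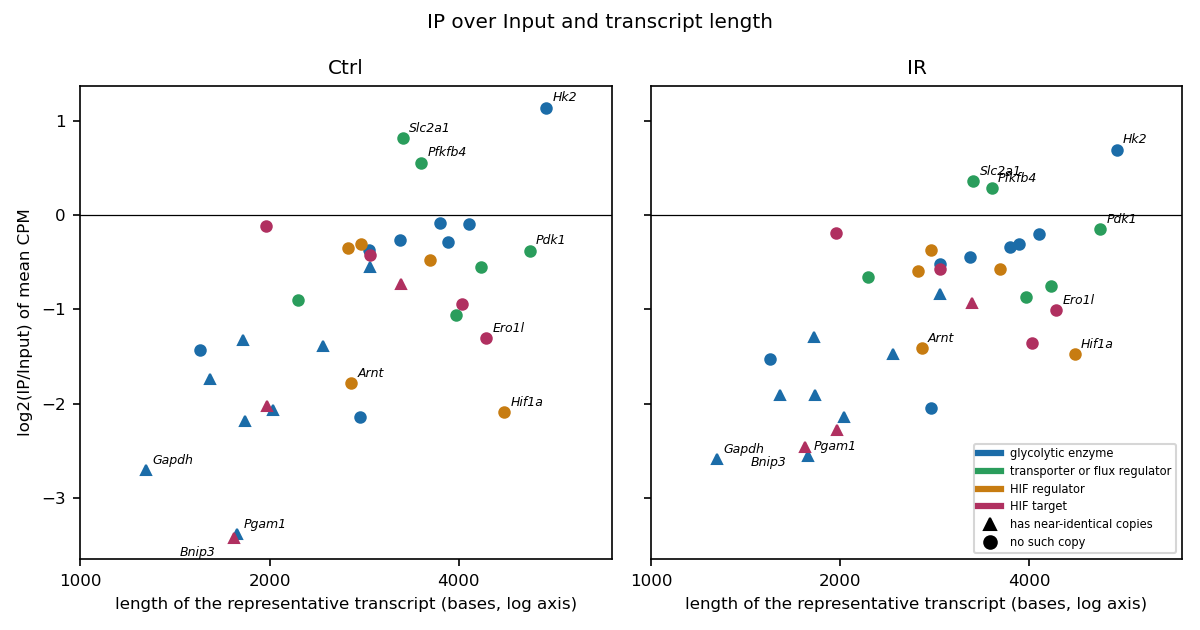
log2(IP/Input) of the mean CPM against the length of the representative transcript (log axis) in Ctrl (left) and IR (right), for the 34 members with a mean of at least 100 counts, coloured by role. Triangles are members with near-identical copies, which fill the lower left of both panels, and *Hk2* is the longest transcript and the highest point in both.

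The second question was how IR changed the abundance of these transcripts. In the Input, 11 of 36 members were higher in IR and 11 were lower, where 21.0% of the 16914 genes tested were higher and 23.9% lower. Among the 11745 genes averaging 100 counts or more, 27.3% were higher and 29.4% lower, close to the shares of the members. In bulk libraries a change in the mix of cells and a change of RNA per cell cannot be told apart. Markers moved as well, since 8 neutrophil markers summed to 5929 to 6655 CPM in the Ctrl Inputs and 8277 to 9007 in the IR Inputs, 5 monocyte markers to 1588 to 1670 and 1810 to 1925, and 7 macrophage markers to 219.6 to 226.3 and 195.5 to 205.2. Members of these lists did not all move with the sum. Of the macrophage markers 4 were called higher in IR and 3 lower, with *Mrc1* carrying most of the fall of the sum (means of 123.5 and 94.9 CPM), of the monocyte markers 3 higher and 2 lower, and of the neutrophil markers 4 higher and 1 lower. Most of the rise of the neutrophil sum came from *S100a8* (means of 2100 and 2902 CPM) and *S100a9* (3516 and 4902 CPM). Most of the rise of the monocyte sum came from *Chil3* (1125 and 1337 CPM). The part of the cell mix in the changes below was not tested.

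Both groups of genes were split. The Inputs of *Hk2*, *Hk3* and *Egln1* overlapped in CPM although they were called. Of the glycolytic enzymes 6 rose and 5 fell, and of the HIF pathway genes 4 rose and 4 fell. All 3 hexokinases fell (*Hk1* by 0.19, *Hk2* by 0.14 and *Hk3* by 0.11 on the log2 scale), and all 3 phosphofructokinases rose, with *Pfkl* at 0.14, *Pfkp* at 0.11 and *Pfkm* at 0.57. *Hk2* lost its call without IR Input replicate 3, *Hk3* without IR Input replicate 2, and *Pfkl* and *Pfkp* without Ctrl Input replicate 2 or IR Input replicate 3 (adjusted p up to 0.0939, edgeR). *Pfkm*, the muscle isoform (ENSMUSG00000033065.14, chr15:98092589-98132451, plus strand), had 4.23, 5.08 and 5.84 CPM in the Ctrl Inputs and 7.66, 8.37 and 7.75 in the IR Inputs, without overlap. In the IPs it overlapped, with 5.72, 3.03 and 3.31 CPM in Ctrl and 3.79, 5.82 and 7.58 in IR. An annotated gene on the same strand covers 10.2% of its exon bases.

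The members with the largest falls in the Input were *Hif1a* (-0.55 ± 0.061, SE, adjusted p = 2.7e-08, edgeR), *Pgam1* (-0.41 ± 0.042), *Ero1l* (-0.37 ± 0.056), *Pfkfb3* (-0.36 ± 0.049), *Arnt* (-0.31 ± 0.055) and *Slc2a3* (-0.30 ± 0.052). Apart from *Pfkm*, the largest rises among the called members were *Ndrg1* (0.36 ± 0.042, adjusted p = 8.92e-08, edgeR), *Egln3* (0.20 ± 0.065) and *Bnip3l* (0.19 ± 0.038). *Gapdh* and *Slc2a1* rose by 0.11 and 0.13, and *Ldha* rose by 0.079 with an adjusted p of 0.0329 (edgeR) that was lost without any 1 of 5 libraries. *Egln3* lost its call without any 1 of 3 libraries and *Gapdh* without any 1 of 2, up to an adjusted p of 0.0793 and 0.101 (edgeR). The 2 subunits of HIF-1, *Hif1a* and *Arnt*, thus fell in the same Inputs. The 8 HIF targets moved both ways there, with *Ndrg1*, *Bnip3l* and *Higd1a* called higher, *Ero1l* lower and 4 not called.

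Many of these changes were close to the scaling. When all 12 libraries were scaled and fitted together, the log2 changes of the members moved by a median of 0.0788, and 3 members instead of 11 were called lower, *Hif1a*, *Pgam1* and *Pfkfb3*, so that the calls of all 3 hexokinases, *Tpi1*, *Slc2a3*, *Arnt*, *Egln1* and *Ero1l* were lost. *Pfkm* (adjusted p = 0.104, edgeR) and *Egln3* (adjusted p = 0.0537) lost their calls there too, as did *Higd1a* (adjusted p = 0.427), and *Aldoa* gained one (0.13, adjusted p = 0.0309). The 11 calls higher became 7 without Ctrl Input replicate 2, without IR Input replicate 2 or without IR Input replicate 3.

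**Figure D4:**
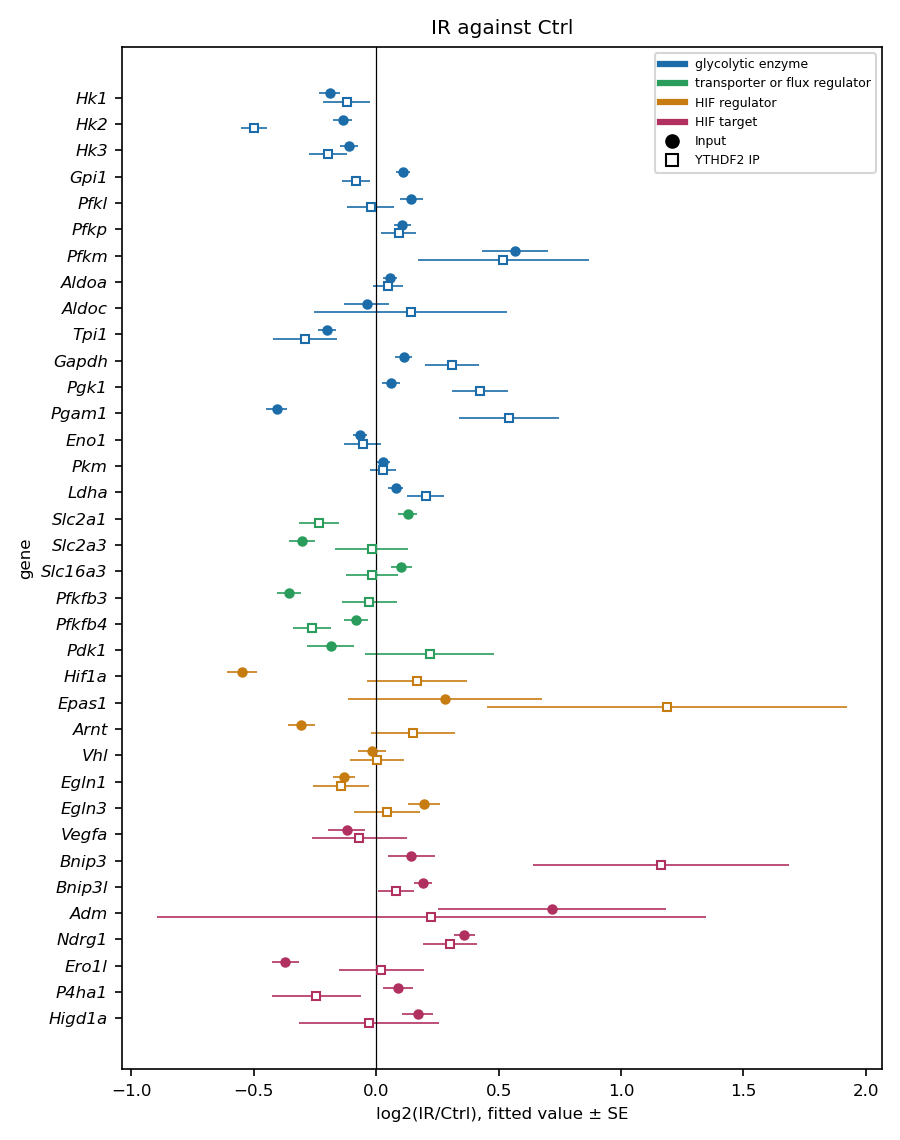
Fitted log2(IR/Ctrl) of each gene with its standard error, in the Input (filled circles) and in the YTHDF2 IP (open squares), coloured by role. *Hk2* lies further left in the IP (-0.50) than in the Input (-0.14), and *Pgam1* and *Hif1a* lie left of 0 in the Input and right of 0 in the IP.

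In the IP, which reads each transcript's share of the RNA recovered with the antibody and not its amount, few members passed the test. *Pgk1* was higher in IR (0.43 ± 0.11, SE, adjusted p = 0.0177, edgeR) and *Hk2* (-0.50 ± 0.053, adjusted p = 5.52e-06, edgeR) and *Pfkfb4* (-0.26 ± 0.078, adjusted p = 0.0306, edgeR) were lower, where 6.12% of 19255 genes were higher and 9.85% lower. *Pgk1* lost its call without Ctrl IP replicate 1, Ctrl IP replicate 3 or IR IP replicate 2 (adjusted p up to 0.0905, edgeR), and *Pfkfb4* without any of the Ctrl IPs or IR IP replicate 2 (adjusted p up to 0.146). With library size in place of TMM, 9 members were called higher and 1 lower, and of all calls 76.3% were higher against 38.3% with TMM. With the replicate number as a block, although same-numbered Ctrl and IR pools share only the number, *Ldha* (0.20, adjusted p = 0.0281, edgeR) and *Slc2a1* (-0.23, adjusted p = 0.0124) were called as well. Of the 14 HIF pathway genes 0 passed with edgeR. *Bnip3* (1.16 ± 0.52, SE) and *Ndrg1* (0.30 ± 0.11), the 2 whose groups did not overlap, were under an unadjusted p of 0.05, and DESeq2 called *Ndrg1* (adjusted p = 0.0462).

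The third question was whether IR changed the IP relative to the Input, tested as the interaction over all 12 libraries. Of the members 2 were called higher, *Pgam1* (0.86 ± 0.16, SE, adjusted p = 0.000404, edgeR) and *Hif1a* (0.63 ± 0.20, adjusted p = 0.0356, edgeR), and 4 lower, where 6.28% of 20720 genes were called higher and 13.9% lower. The 4 were *Hk2* (-0.45 ± 0.067, adjusted p = 5.51e-05, edgeR), *Slc2a1* (-0.45 ± 0.10, adjusted p = 0.00252), *Gpi1* (-0.28 ± 0.066, adjusted p = 0.0038) and *Pfkfb4* (-0.27 ± 0.091, adjusted p = 0.0422). The 3 members above the Input in Ctrl were thus all closer to it in IR, and *Pgam1* and *Hif1a*, far below the Input in Ctrl, were also closer to it, whereas *Gpi1* was further below it (-0.48 in Ctrl and -0.78 in IR). The median over the members was -0.092 and over all genes tested -0.083, while for genes averaging 100 counts or more the calls came to 8.48% higher and 24.0% lower.

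These 6 calls were not equally firm. *Hk2*, *Slc2a1* and *Pgam1* were called in all 12 fits that left out a library. *Hif1a* lost its call in 7 of these 12 fits (adjusted p up to 0.0993, edgeR) and *Pfkfb4* in 11 of 12 (up to 0.234), and with the replicate block *Pfkfb4* was at an adjusted p of 0.0756 (edgeR). *Gpi1* lost its call without Ctrl IP replicate 3 (adjusted p = 0.0818, edgeR). With library size in place of TMM the median of all genes moved by 0.31, so that 0 members were called lower by edgeR (1 at an unadjusted p under 0.05, *Hk2*) and 13 were called higher, with *Hk2* and *Slc2a1* each at -0.14. Of all calls 76.5% were then higher, against 31.1% with TMM. The 2 members called higher became 6 without Ctrl IP replicate 1 or without IR IP replicate 3.

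**Figure D5:**
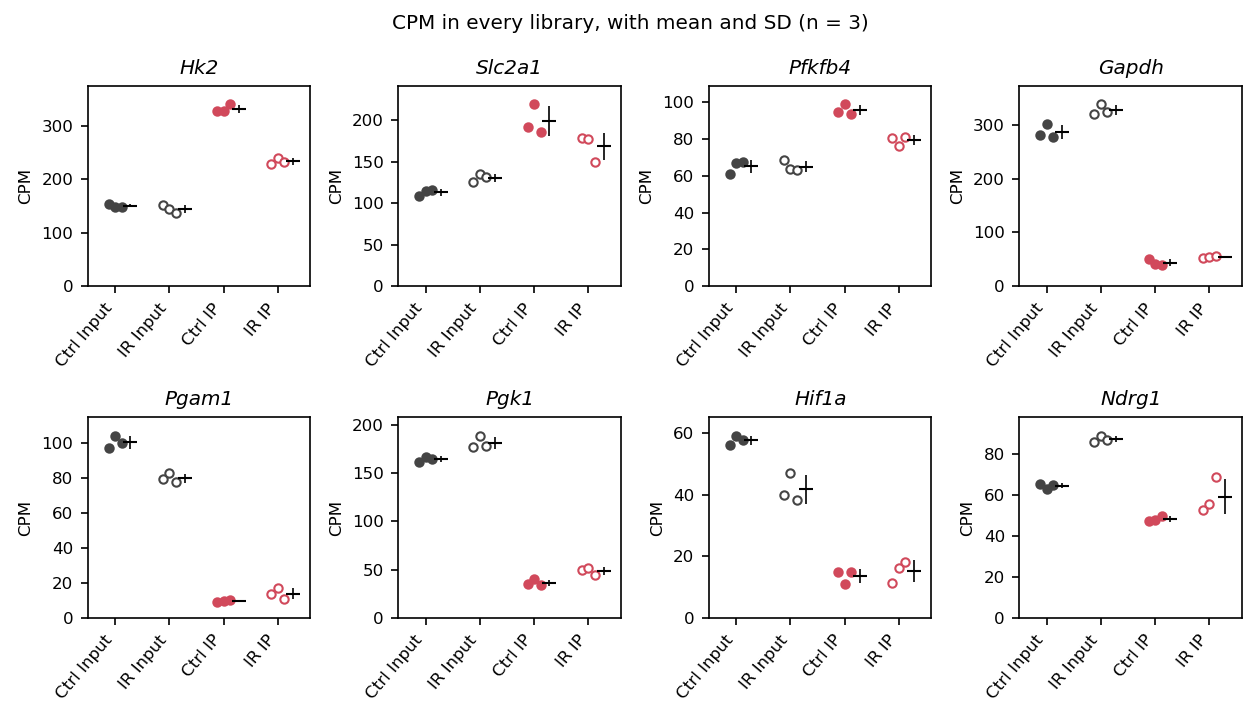
CPM of 8 members in every library (points), with the mean and SD of each group (bars, n = 3), for Input (grey) and IP (red) in Ctrl (filled) and IR (open), each axis starting at 0. The IPs of *Hk2*, *Slc2a1* and *Pfkfb4* lie above the Inputs, and those of the other 5 below.

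HIF-1 binds DNA at the core ACGTG or GCGTG, and the promoters of 2 enzymes that moved in opposite directions in the IP with IR, *Hk2* and *Pgk1*, are shown with the cores of either strand in capitals (on the other strand they read CACGT and CACGC, and overlapping cores are counted at each start). Each gives the 250 bases before the most upstream RefSeq start (GRCm38.p6), 5′ to 3′ on the gene's strand.
*Hk2*, chr6:82774455-82774704, minus strand: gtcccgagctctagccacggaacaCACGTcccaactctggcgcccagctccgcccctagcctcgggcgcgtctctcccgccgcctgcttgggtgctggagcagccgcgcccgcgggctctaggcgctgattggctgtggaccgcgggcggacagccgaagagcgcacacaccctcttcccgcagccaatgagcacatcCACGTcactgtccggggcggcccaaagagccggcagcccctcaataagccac
*Pgk1*, chrX:106186850-106187099, plus strand: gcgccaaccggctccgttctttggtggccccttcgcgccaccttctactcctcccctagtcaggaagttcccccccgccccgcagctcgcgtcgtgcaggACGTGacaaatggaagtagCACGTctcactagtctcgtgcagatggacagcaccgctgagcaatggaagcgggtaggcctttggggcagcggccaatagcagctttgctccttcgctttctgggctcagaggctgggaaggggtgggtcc
Both hold 2 cores, at 226 and 52 bases before the start in *Hk2* and at 150 and 131 bases in *Pgk1*. RefSeq promoters were matched for 32 of 36 members, all but *Slc2a3*, *Epas1*, *Bnip3l* and *Ndrg1*, and 25 of the 32 (78.1%) hold a core. The share was 38.6% of 27025 promoters in all and 58.1% of the 8456 promoters of expressed protein-coding genes. By role it was 11 of 16 glycolytic enzymes and 9 of 11 HIF pathway genes, and no binding of HIF was measured here.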

How the data were processed

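YTHDF2 RIP-seq of tumor-infiltrating CD11b+ myeloid cells was analysed in 12 libraries, grouped by their titles as Ctrl or IR and Input or IP with 3 replicates each. The authors trimmed reads with Trimmomatic 0.39, aligned them to mm10 with HISAT and deposited HTSeq counts per GENCODE M19 gene, whole numbers with no normalization. The strand option of the counting and any removal of duplicates are not given in the sources used here, so overlapping genes may share reads, and detection floors and p-values cover the spread between these libraries, which may be technical. HTSeq's 5 summary lines were kept out of library sizes.

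Symbols and coordinates came from GENCODE M21 (mm10), which matched 97.76% of the identifiers with their version. A further short gene with the symbol *Aldoa* (ENSMUSG00000114515.2) was not used. CPM were scaled with TMM factors computed over the 12 libraries together. Tests used edgeR 4.0.16 in R 4.3.3 on the libraries of each comparison, with TMM recomputed for them, so that a log2 fold change can differ from the ratio of the CPM. The filter was 10 counts in 3 libraries, which all 36 members passed in each comparison. The standard error is the absolute log2 fold change over the square root of F. The difference between glycolytic enzymes and HIF pathway genes has no test. Only the edgeR fits were tried on simulated counts, with large changes and little spread, so small changes and the noisier IR IPs were not covered.

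The members and lists were chosen with earlier results of these data known. All members are named. Values of every library are given for the member of each role with the largest called change in each direction of any comparison with a mean of at least 100 counts, and for *Hif1a*, *Gapdh*, *Ldha*, *Slc2a1* and *Vegfa*. Up to 2 genes per pathway list, comparison and direction were eligible to be named by the same rule.

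By the study's methods, part of each lysate was kept as Input and the rest went into the IP. IP and Input of the same replicate number were therefore taken as pairs within a condition, which the titles do not state. The correlation of their deviations from the group means was -0.031 to 0.041. Same-numbered Ctrl and IR pools held different mice. Blocking on the replicate number was 1 alternative. The others were DESeq2's size factors, library size only, DESeq2 1.42.0, other filters, all 12 libraries in 1 fit, nuclear protein-coding genes only, each library left out in turn and, added after seeing the data, the members without near-identical copies.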

Additional observations from a re-analysis of the deposited data

Results flagged for a closer look

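For 6 members the log2(IP/Input) differed between Ctrl and IR by the test of the difference itself (the interaction in edgeR over 12 libraries, adjusted over 20720 genes). Of all these genes 6.28% were called higher and 13.9% lower. When 1 library was left out, *Hif1a* lost its call in 7 of 12 fits, *Pfkfb4* in 11 and *Gpi1* in 1. The log2(IP/Input) was higher in IR for the phosphoglycerate mutase *Pgam1*, by 0.86 (-3.32 in Ctrl and -2.48 in IR), and for *Hif1a*, by 0.63 (-2.01 and -1.41). For both genes the Input fell with IR (-0.41 and -0.55), and the change in the IP was not called (0.54, adjusted p = 0.0876, and 0.17, adjusted p = 0.664, edgeR). For the hexokinase *Hk2* the difference was -0.45 (1.22 in Ctrl and 0.75 in IR), and its IP fell (-0.50). For the glucose transporter *Slc2a1* it was -0.45 (0.89 and 0.42), where the Input rose (0.13) and the IP was not called (-0.23, adjusted p = 0.0672, edgeR). For the isomerase *Gpi1* it was -0.28 (-0.48 and -0.78), where the Input rose (0.11) and the IP was not called (-0.084, adjusted p = 0.366, edgeR). For *Pfkfb4* it was -0.27 (0.63 and 0.34), where the IP fell (-0.26) and the Input was not called (-0.083, adjusted p = 0.182, edgeR).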

How the results depend on the processing

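The IP was compared with an Input and with no control antibody, and 3 pools per condition limit the precision. With library size only, the median of all genes moved by -0.18 in Ctrl and 0.15 in IR for IP against Input, by 0.31 for the interaction and by 0.21 for IR against Ctrl in the IP. *Pfkp* in IR then had a log2(IP/Input) of 0.0056, and the interaction turned to 0.029 for *Gpi1*, 0.22 for *Aldoa*, 0.23 for *Eno1*, 0.22 for *Pkm* and 0.043 for *Pfkfb4*. The interaction then called 13 members higher and 0 lower (2 and 4 with TMM), and the IP called 9 higher and 1 lower in IR (1 and 2 with TMM). Over all genes tested, the interaction then called 2862 higher and 877 lower (1301 and 2881 with TMM). The IP called 2665 higher and 828 lower in IR (1179 and 1896 with TMM). DESeq2's size factors called 4 members higher in the interaction, where 1494 of all genes tested were called higher and 2374 lower. DESeq2 called 5 members higher there and 4 in the IP. Either 10 counts in every library or nuclear protein-coding genes alone called 6 and 4, with 1 lower in the IP under the first of these. For DESeq2, these gene filters and the fits below, no share over all genes is given. All 12 libraries together called 3 members lower in the Input (11 otherwise), and 6 higher and 5 lower in the IP. For these counts the cause was not tested.

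Without the members that have near-identical copies, the glycolytic minus HIF difference of medians was 0.14 in Ctrl, 0.18 in IR, 0.027 for the Input (otherwise -0.074) and -0.056 for the interaction (otherwise -0.0091). With 10 counts in every library it was -0.45 in IR. It was not run with the block or with all libraries together.

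Leaving out 1 library gave 1 to 6 members higher and 2 to 5 lower in the interaction, 7 to 12 higher in the Input, and 0 to 3 higher and 1 to 3 lower in the IP. The interaction had 1 higher without any Ctrl Input or without IR Input replicate 1 or 3, 6 without Ctrl IP replicate 1 or IR IP replicate 3, and 2 lower without Ctrl IP replicate 3. The IP had 0 higher without Ctrl IP replicate 3 or IR IP replicate 2, 2 without IR IP replicate 1 and 3 without IR IP replicate 3, and 1 lower without any Ctrl IP or without IR IP replicate 2. The difference of medians ranged from -0.044 to 0.076 for the interaction and from -0.10 to 0.0045 for the IP.

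With the replicate number as a block, taken to pair IP and Input of 1 lysate, *Pfkp* in IR (adjusted p = 0.0618, edgeR) and the interaction of *Pfkfb4* lost their calls, and no other call of a member changed in these comparisons. Between Ctrl and IR the number pairs no samples (correlations of -0.0081 to 0.074). The block there called 2 members higher in the IP, and in the Input *Aldoa* (adjusted p = 0.0274, edgeR), *Eno1* (adjusted p = 0.00685) and *Slc16a3* (adjusted p = 0.0232) gained a call, besides *Ldha* and *Slc2a1* in the IP. Of 180 results by gene, 171 kept direction and side of the threshold with DESeq2 and 173 with the block.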

Other observations

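Genes of the same pathways that are not among the 36 were read from 3 further lists. Of 30 genes of glucose and lactate metabolism, 3 were higher and 15 lower in the IP of 26 tested in Ctrl, and 1 and 16 of 25 in IR, where 34.1% of all genes tested were higher and 34.6% lower in Ctrl and 32.1% and 30.4% in IR. *Gbe1*, the glycogen branching enzyme, was higher in both (0.54 and 0.66), and *Mpc1*, a subunit of the mitochondrial pyruvate carrier, was lower in both (-2.70 and -2.46). With IR, 5 rose and 5 fell in the Input of 25 tested, 0 rose and 2 fell in the IP, and the interaction called 0 higher and 5 lower. Of all genes tested, 21.0% rose and 23.9% fell in the Input, 6.12% and 9.85% in the IP, and the interaction called 6.28% higher and 13.9% lower. *Slc16a1*, the lactate transporter MCT1, had 24.2, 27.7 and 24.9 CPM in the Ctrl Inputs and 9.33, 9.86 and 9.97 CPM in the IR Inputs, without overlap, and its log2 change was -1.48 in the Input and -1.52 in the IP.

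Of 14 further HIF regulators, 13 were tested for the IP against the Input, with 4 higher and 4 lower in Ctrl and 5 and 6 in IR, against the same 34.1% and 34.6% of all genes in Ctrl and 32.1% and 30.4% in IR. *Crebbp*, a transcriptional coactivator that works with HIF-1, was at 246.7, 254.1 and 251.5 CPM in the Ctrl Inputs and at 1163, 1191 and 1190 CPM in the Ctrl IPs. Its log2(IP/Input) was 2.31 in Ctrl and 1.81 in IR, above that of *Hk2* in both. *Siah2*, a ubiquitin ligase for the HIF hydroxylases, was also higher (1.30 and 0.92), and *Elob*, a partner of VHL, was lower (-1.55 and -2.00). With IR, 3 rose and 3 fell in the Input of 12 tested (21.0% and 23.9% of all genes) and 0 rose and 3 fell in the IP (6.12% and 9.85%), and the interaction called 2 higher and 5 lower (6.28% and 13.9%), *Crebbp* among the lower (-0.48).

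Of 24 further hypoxia targets, 3 were higher and 13 lower in the IP of 20 tested in Ctrl, and 4 and 11 of 22 in IR (34.1% and 34.6% of all genes in Ctrl, 32.1% and 30.4% in IR), with *Mif*, a cytokine, at -2.78 and -2.70. In the Input 11 rose with IR and 4 fell of 20 tested, against 21.0% and 23.9% of all genes. In the IP 4 rose and 1 fell of 22 (6.12% and 9.85% of all genes), and the interaction called 2 higher and 0 lower (6.28% and 13.9%). *Plod2*, a lysyl hydroxylase of collagen, was at 1.29, 0.975 and 1.25 CPM in the Ctrl Inputs and at 6.83, 6.21 and 6.24 CPM in the IR Inputs (log2 change 2.38). *Ddit4*, an inhibitor of mTORC1, rose in the Input (1.27) and in the IP (1.94). *Tfrc*, the transferrin receptor, fell from 94.1, 99.0 and 101.7 CPM to 50.7, 51.6 and 52.1 CPM (-1.01). The neutrophil, monocyte and macrophage markers moved in the same Inputs, and their part was not tested.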
